A study of Rattus norvegicus with 19 samples.

Results

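RNA from enhancers was compared between depolarized neuronal cultures of rat cortex, hippocampus and striatum, to ask whether regional enhancer identity was present after 1 h of KCl and which enhancers differed between regions in that state alone. The 9 KCl libraries were taken from a series of 19, with 3 libraries each from cortex, hippocampus and striatum. The units measured were transcriptionally active putative enhancers (TAPEs), which are intergenic stretches of open chromatin with RNA-seq reads on both strands. Of 27538 TAPEs in the table, 1870 had a mean of at least 0.05 CPKM over all 19 libraries and were tested. CPKM is the number of reads over a TAPE, scaled to its length in kilobases and to the depth of the library. The mean includes the KCl libraries, so a TAPE that is high in 1 region can pass through that region alone.

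Sprague-Dawley rat neurons were taken at embryonic day 18 and kept for 11 days in vitro, then given neurobasal media (vehicle) or KCl for 1 h before total RNA was depleted of ribosomal RNA and sequenced. Sample labels give 25 mM KCl, whereas the text of the series gives 10 mM. The vehicle cultures, used here as the resting reference, gave 3 cortex, 3 hippocampus and 4 striatum libraries. The title of cortex vehicle replicate 3 names cortex and its tissue label names striatum, and the title was followed. For striatum the titles give 4 vehicle and 3 KCl libraries, whereas the study's methods count 3 and 4, and the titles were followed. On the standardised gene scale described further on, Fos stood at 1.55 to 1.62 in the striatum libraries titled KCl. In those titled vehicle it stood at -0.79 to -0.62. Open chromatin had been called in each region and then combined, and RNA on both strands was scored on merged RNA-seq files of all cultures, so 1 set of TAPEs served every region and state. These cultures are mixtures of neurons and glia, and fewer cells of a type cannot be told apart from less RNA per cell. The labels do not say which libraries came from the same animals or cultures, so p-values measure the spread between these libraries.

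Enhancers are stretches of DNA that bind transcription factors and raise transcription of genes on the same chromosome, often over long distances. Active enhancers are themselves transcribed in both directions, and the resulting enhancer RNA (eRNA) is short-lived, so its level follows the momentary activity of the element. High extracellular potassium depolarizes neurons and opens voltage-gated calcium channels, and the calcium signal acts through kinases and factors such as CREB to switch on early genes, among them Fos, Fosb, Nr4a1, Arc and Npas4. Cortical and hippocampal neurons are mostly glutamatergic cells of the pallium, whereas most striatal neurons are GABAergic projection cells, and each class carries its own set of transcription factors.

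Guide RNAs that the study designed for activating single enhancers mark 5 of the tested TAPEs, and they are shown because these elements flank activity-regulated genes whose regional levels after KCl are described here. They are written 5′ to 3′ as DNA, and capitals mark the 12 bases at the 3′ end, the side of the guide that lies next to the protospacer-adjacent motif. The first 3 lie in TAPEs on chromosome 6 around Fos, at positions 109262269, 109281666 and 109312925 of the Rn6 assembly. The next lies in a TAPE on chromosome 1 near Fosb, at position 80231959, and the last 2 lie in 1 TAPE on chromosome 7 near Nr4a1, at positions 142890863 and 142891090.
Fos enhancer 1: gaggagacTAACTGAGCAGC
Fos enhancer 2: gcctgttgTCATGACTGCCG
Fos enhancer 3: gggtggggGCCTCTGACGGG
Fosb enhancer: gttgtttgTCCCCGGCCAGG
Nr4a1 enhancer, guide 1: gtgtgtggAAACTTGTAGCG
Nr4a1 enhancer, guide 2: cgggctccCTGCGGATTGCG

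Depth recovered from the deposited values was 46.4 to 68.4 M reads in the KCl libraries. This is above the range of reads per sample that the study's methods give, and the reason was not tested. Log2 values correlated at 0.709 to 0.778 between KCl libraries of a region and at 0.336 to 0.619 between regions over the 1870 TAPEs, which share library depth and TAPE length. No pair of libraries held identical values, and the chi-square of their read counts per degree of freedom was 2.13 to 2.48 within regions and 4.16 to 6.86 between them. The hippocampus libraries were lower over the tested TAPEs as a whole. The median tested TAPE had 0.0936 ± 0.000339 CPKM in cortex, 0.0786 ± 0.00355 in hippocampus and 0.0923 ± 0.000120 in striatum (SD, n = 3 each), and an exact permutation test over the regions, two-sided, gave p = 0.00357, the smallest these libraries can give. TAPEs took 0.104 ± 0.00135% of library reads in cortex, 0.0976 ± 0.00515% in hippocampus and 0.0995 ± 0.00184% in striatum (exact permutation p = 0.143, and 0.00357 without hippocampus KCl replicate 1).

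Regional differences were widespread in depolarized cultures. In limma's F-test over the 3 regions, 598 TAPEs (32%) passed an adjusted p of 0.05, and 807 had an unadjusted p under 0.05. Hippocampus and striatum were farthest apart, with 533 TAPEs called (28.5%), followed by cortex and striatum with 386 (20.6%) and cortex and hippocampus with 176 (9.41%). The median size of a called difference was 1.23, 1.29 and 1.25 on the log2(CPKM + 0.05) scale, in the same order, and the median standard error was 0.34. The offset compresses differences of weakly transcribed TAPEs. Without hippocampus KCl replicate 2 the last count was 109.

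Directions depended on the lower hippocampal median. Over all tested TAPEs the median log2 difference was 0.15 for cortex minus hippocampus, 0.05 for cortex minus striatum and -0.14 for hippocampus minus striatum. As deposited, 111 of the 176 TAPEs called between cortex and hippocampus were higher in cortex (63.1%) and 65 in hippocampus. After each library was centred on its median, 66 were higher in cortex (41.5%) and 93 in hippocampus. Between hippocampus and striatum, 223 TAPEs were higher in hippocampus (41.8%) and 310 in striatum as deposited, against 271 (53.9%) and 232 after centring. Between cortex and striatum the split was 207 higher in cortex and 179 in striatum.

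Each KCl library was then compared with the mean resting profile of every region, over the 675 TAPEs (36.1%) that differed between regions in the vehicle libraries alone. All 9 KCl libraries correlated best with their own region. Cortex KCl libraries correlated at 0.831 to 0.857 with vehicle cortex and at 0.583 to 0.616 with the next region, hippocampus. Hippocampus KCl libraries correlated at 0.861 to 0.868 with vehicle hippocampus and at 0.604 to 0.645 with vehicle cortex. Striatum KCl libraries stood farthest from the other regions, at 0.858 to 0.866 with vehicle striatum and 0.290 to 0.302 with vehicle cortex. Over all 1870 tested TAPEs, correlations with the library's own region were 0.753 to 0.802, 0.786 to 0.797 and 0.781 to 0.795 in cortex, hippocampus and striatum, again the highest in 9 of 9 libraries.

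**Figure D1:**
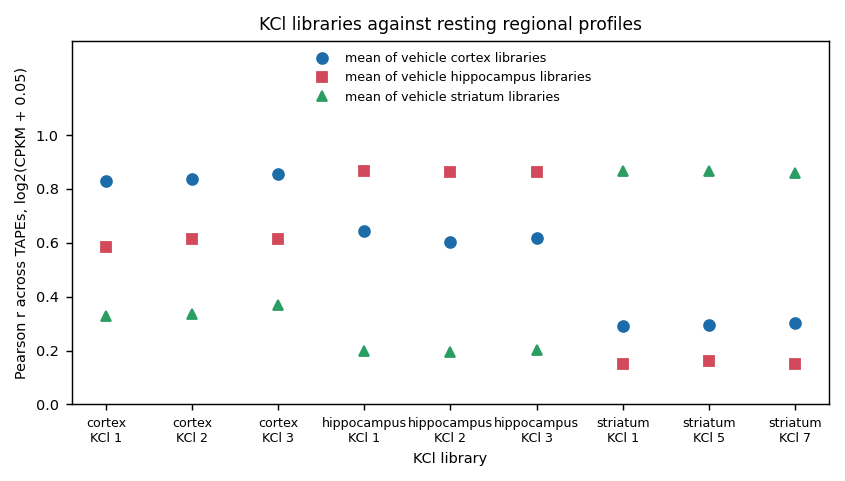
Pearson correlation (y axis, no unit) of each KCl library (x axis) with the mean vehicle profile of cortex, hippocampus and striatum on log2(CPKM + 0.05), over the 675 TAPEs that differed between regions in vehicle libraries; 1 point per library and reference. The point for the library's own region is the highest in all 9 columns, between 0.831 and 0.868.

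KCl and vehicle groups share no library, so a difference called in one state was read in other libraries in the other state, although the labels do not say whether the cultures shared animals. Of the 176 TAPEs called between cortex and hippocampus after KCl, 160 (90.9%) had the same sign in vehicle, against 66.5% of all tested TAPEs, and 88 (50%) were also called there, where 165 TAPEs were called in all (8.82%). Between cortex and striatum, 371 of 386 (96.1%) kept their sign, against 73.9% of all tested TAPEs, and 261 (67.6%) were called in vehicle, where 455 were (24.3%). Between hippocampus and striatum, 514 of 533 (96.4%) kept their sign, against 78.0%, and 362 (67.9%) were called in the same direction in vehicle, where 611 were (32.7%). A single TAPE, near Ezh2, was called in opposite directions in the 2 states.

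Called differences were smaller on average in the state that had not selected them. The median KCl difference was 1.25 for cortex against hippocampus, and the same TAPEs had a median of 0.88 in vehicle. The corresponding medians were 1.29 and 1.05 for cortex against striatum and 1.23 and 1.09 for hippocampus against striatum. Of TAPEs called in vehicle and then read in KCl, 93.9%, 96.9% and 96.1% had the same sign in the 3 comparisons. Over all tested TAPEs the KCl and vehicle differences correlated at 0.61, 0.78 and 0.81.

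**Figure D2:**
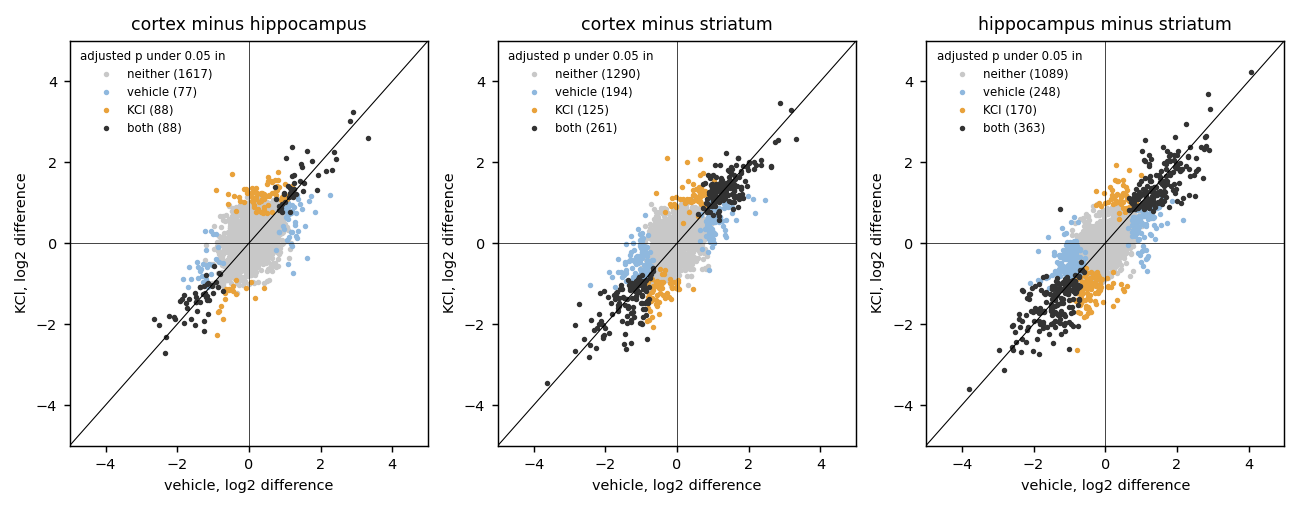
Regional log2 difference on log2(CPKM + 0.05) in vehicle (x axis) and in KCl (y axis) for 1870 TAPEs, 1 point each, in the 3 regional comparisons; colours show in which state the adjusted p was under 0.05, and the diagonal marks equal differences. Points called in both states lie along the diagonal, and the TAPE near Ezh2 is the 1 dark point in the upper left quadrant of the panel for hippocampus minus striatum.

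A TAPE was called high in a region if the KCl F-test was passed and its level exceeded both other regions at unadjusted pairwise p under 0.05, and called low by the mirror rule. High TAPEs numbered 90 in cortex (4.81%), 86 in hippocampus (4.6%) and 182 in striatum (9.73%). In 77, 76 and 168 of these the 3 libraries of the region lay above all 6 others. They had been chosen for a difference in the same libraries, so this separation is partly set by the rule. Low TAPEs numbered 26 in cortex (1.39%), 108 in hippocampus (5.78%) and 150 in striatum (8.02%). These values were not centred, so the lower hippocampal median after KCl bears on its low class. High in 1 region and low in another were 71 TAPEs. After centring libraries the number high in hippocampus was 131, and 71 and 167 were high in cortex and striatum. The class was the same in vehicle cultures for 38 of the TAPEs high in cortex (42.2%), 55 of those high in hippocampus (64.0%) and 118 of those high in striatum (64.8%). Of all tested TAPEs, 3.58%, 4.97% and 11.7% were high in these regions in vehicle. For low TAPEs the shares of the same class in vehicle were 26.9%, 38.9% and 72%, against 1.34%, 5.56% and 9.95% of all tested TAPEs.

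The leading elements of each high or low class were picked for no overlap of that region's KCl libraries with the others. Their separation after KCl was therefore set by the choice, whereas the vehicle values come from other libraries. Among TAPEs high in cortex after KCl, the lowest F-test p belonged to an element at chr7:124669911-124674064, 8.31 kb from the start of Mpped1, which encodes a brain metallophosphoesterase. It had 0.731, 0.773 and 0.817 CPKM in the cortex KCl libraries, 0.0463, 0.0425 and 0.0241 in hippocampus and 0.227, 0.222 and 0.198 in striatum. The 3 regions did not overlap, and the cortex minus hippocampus difference was 3.24 ± 0.25 (log2, SE; limma adjusted p = 8.19e-09). In vehicle it had 0.938 ± 0.223 CPKM in cortex (SD, n = 3) and 0.0820 ± 0.0220 in hippocampus.

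An element 147 kb from the zinc-finger gene Zfp600 (chr11:38873452-38874789) had 0.657 ± 0.0447 CPKM in cortex, 0.366 ± 0.162 in hippocampus and 0.0191 ± 0.0331 in striatum (SD, n = 3 each). Its difference between cortex and striatum was 3.45 ± 0.32 (adjusted p = 9.48e-08), and between cortex and hippocampus 0.83 ± 0.32 (adjusted p = 0.104). Other leading cortical elements lay near Ezh2 and Dtna. The order of their regional means in KCl differed from that at rest, as described with the state-dependent TAPEs.

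The lowest F-test p of all tested TAPEs belonged to an element high in hippocampus, at chr8:28841568-28844421, 388 kb from its nearest gene start, Spata19. It had 4.91, 4.89 and 5.45 CPKM in the hippocampus KCl libraries, 2.09, 2.64 and 3.17 in cortex and 0.225, 0.284 and 0.168 in striatum. No regions overlapped, and the hippocampus minus striatum difference was 4.24 ± 0.16 (adjusted p = 1.34e-15). Vehicle levels were 5.60 ± 0.0838, 2.97 ± 0.252 and 0.292 ± 0.0781 CPKM in hippocampus, cortex and striatum. The interaction of region and treatment had an unadjusted p of 0.76 for this TAPE.

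Near Synpr, which encodes the synaptic vesicle protein synaptoporin, an element at chr15:14884619-14887883 had 1.58, 1.61 and 1.39 CPKM in hippocampus after KCl. Cortex libraries had 0.0792, 0.330 and 0.237, and striatum 0.0983, 0.152 and 0.0822, so hippocampus lay above both and the other 2 regions overlapped. The Synpr gene itself, 149 kb away, was highest in striatum (1.18 ± 0.15 standardised units) and not in hippocampus (-0.59 ± 0.02). Within 5.22 kb of Prox1, the homeobox factor of dentate granule cells, an element at chr13:108376448-108377915 had 0.370, 0.288 and 0.340 CPKM in hippocampus. It stood at 0, 0.103 and 0.0598 in cortex and at 0.0257, 0.0251 and 0.0261 in striatum, all under the hippocampus values (hippocampus minus striatum 2.33 ± 0.36, adjusted p = 4.14e-05). Here the gene had the same leading region, at 1.42 ± 0.03 in hippocampus, -0.54 ± 0.02 in cortex and -0.67 ± 0.01 in striatum.

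The other leading hippocampal elements lay near Fam83f, near Bhlha9, a basic helix-loop-helix factor of limb development, and near Dnajc6, which encodes the clathrin-uncoating protein auxilin. Their hippocampus means were 0.806 ± 0.0590, 1.05 ± 0.102 and 0.503 ± 0.0407 CPKM (SD, n = 3), against 0.0218 ± 0.0378, 0.198 ± 0.0466 and 0.0541 ± 0.00647 in striatum. Cortex lay between hippocampus and striatum in all 3. In vehicle the same 3 TAPEs were high in hippocampus and low in striatum.

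In striatum, the leading TAPEs after KCl were low in both other regions. An element 471 kb from Dpp6, an auxiliary subunit of A-type potassium channels, had 0.668, 0.641 and 0.734 CPKM in striatum (chr4:4943207-4944903). Cortex libraries were at 0, 0.0496 and 0.00862 CPKM and hippocampus libraries at 0.0103, 0.0104 and 0.00982. Striatum exceeded hippocampus by 3.60 ± 0.32 (hippocampus minus striatum -3.60, adjusted p = 3.21e-08), and vehicle striatum was at 0.646 ± 0.0686 CPKM with all 3 vehicle hippocampus libraries at 0.

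An element 8.04 kb from Rpp25, a subunit of ribonuclease P (chr8:62274612-62275990), had 0.863, 0.989 and 0.681 CPKM in striatum KCl libraries. All 6 cortex and hippocampus KCl libraries lay between 0.0639 and 0.145 CPKM. Its vehicle striatum level was 1.43 ± 0.106 CPKM (SD, n = 4), above every KCl striatum library, and the region by treatment interaction had an unadjusted p of 0.639. Elements near Spaca7 and MGC116121 had 0.919 ± 0.0538 and 0.639 ± 0.0474 CPKM in striatum after KCl, against 0.139 ± 0.0197 and 0.0704 ± 0.0135 in cortex and 0.0629 ± 0.0244 and 0.160 ± 0.0291 in hippocampus.

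The fifth leading striatal element was Fos enhancer 1 (chr6:109261263-109264039), which carries the first guide shown and lies 37.8 kb from the Fos start. It had 0.564, 0.684 and 0.635 CPKM in striatum, 0.116, 0.0848 and 0.0842 in cortex and 0.0882, 0.0508 and 0.0360 in hippocampus. Striatum lay above the other regions without overlap, as its choice required, whereas cortex and hippocampus overlapped. The cortex minus striatum difference was -2.23 ± 0.28 (adjusted p = 7.35e-06) and the hippocampus minus striatum difference -2.67 ± 0.28 (adjusted p = 3.16e-07). The order was present at rest at lower levels, with 0.177 ± 0.0305 CPKM in striatum, 0.0107 ± 0.000809 in cortex and 0.00642 ± 0.00637 in hippocampus, and the interaction F-test was not passed (adjusted p = 0.792).

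**Figure D3:**
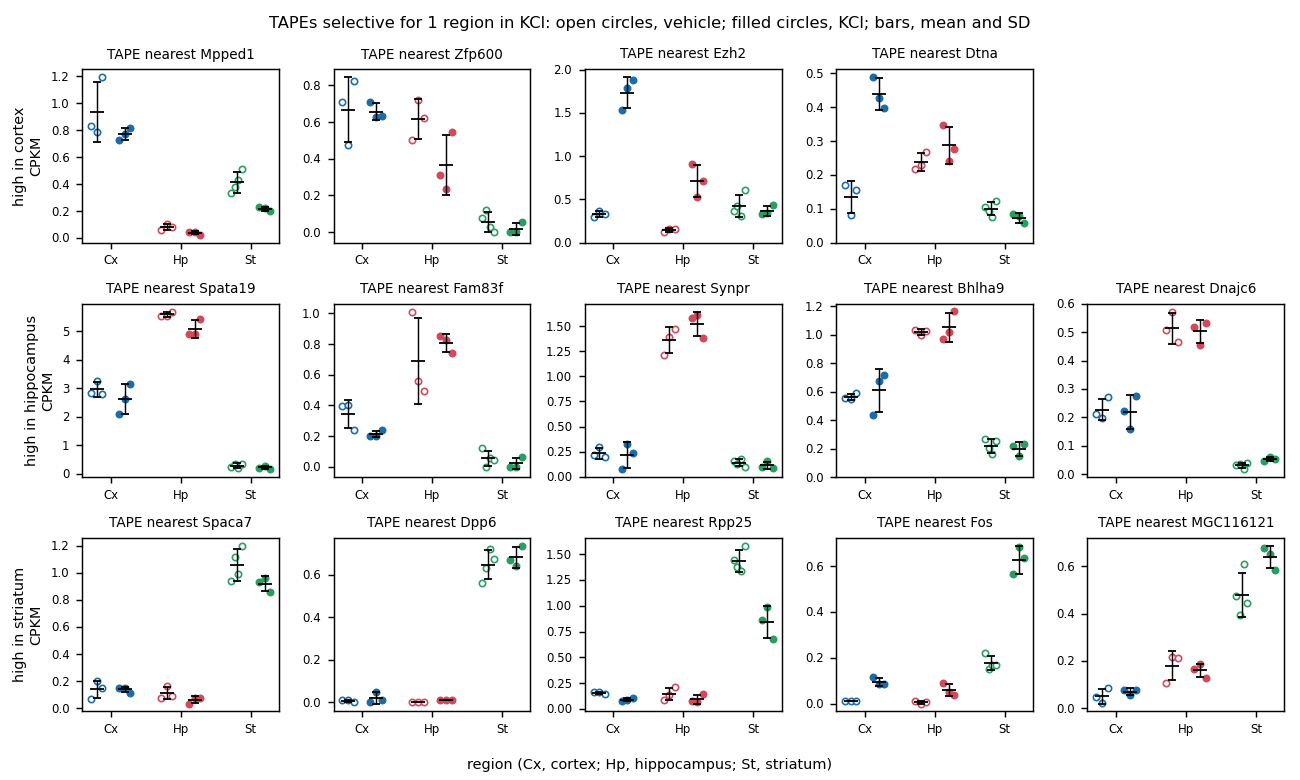
CPKM (y axes, linear) of leading TAPEs by F-test p among those high in cortex (top, 4 panels), hippocampus (middle, 5) and striatum (bottom, 5) in KCl cultures, with no overlap of libraries, against region (x axis). Points are libraries, open for vehicle and filled for KCl, and bars show mean and SD. In 12 of the 14 panels the region with the highest KCl mean also has the highest vehicle mean, and the panels for Ezh2 and Dtna are the exceptions.

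The 3 leading elements low in cortex lay near Vegfa, Pappa1 and MGC116121, and the last was also high in striatum. The element 136 kb from Vegfa, the vascular growth factor gene, had 0.0422, 0.0220 and 0.0191 CPKM in cortex, 0.275, 0.277 and 0.501 in hippocampus and 0.0864, 0.121 and 0.125 in striatum (chr9:17475704-17477233). Cortex was under both other regions in every library (cortex minus hippocampus -2.33 ± 0.31, adjusted p = 3.31e-05). The element 233 kb from Pappa1 had 0.253 ± 0.0848 CPKM in cortex, 0.886 ± 0.0939 in hippocampus and 0.429 ± 0.0783 in striatum. Its vehicle means were 0.280, 0.852 and 0.482 CPKM. The leading elements low in striatum were those near Spata19, Fam83f and Zfp600, already described.

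The 3 leading elements low in hippocampus were those near Mpped1 and Spaca7 and an element 298 kb from Mn1, a transcriptional co-regulator (chr12:50950307-50953159). The Mn1 element had 0.710, 0.654 and 0.753 CPKM in cortex and 0.847, 0.588 and 0.799 in striatum, against 0.123, 0.0742 and 0.0934 in hippocampus. Cortex and striatum overlapped and both lay above hippocampus (cortex minus hippocampus 2.38 ± 0.22, adjusted p = 1.04e-07). At rest its levels were 0.0892 ± 0.0509, 0.224 ± 0.0546 and 0.00816 ± 0.00707 CPKM in cortex, striatum and hippocampus, so striatum alone was high there, but the interaction F-test had an adjusted p of 0.436. A second Mn1 element, 48.9 kb from the gene (chr12:51200380-51202270), was high in striatum at 0.367 ± 0.0882 CPKM, with 0.0979 ± 0.0453 in cortex and 0.0365 ± 0.00112 in hippocampus.

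To ask which TAPEs differed between regions in depolarized cultures alone, calls in the 2 states were set beside each other and the difference of differences was tested. Of the 598 TAPEs called in KCl, 424 (70.9%) were called in vehicle, and they made up 62.8% of the vehicle calls. The region with the highest mean was the same in vehicle for 504 of 598 (84.3%), against 63.7% of all tested TAPEs. In 133 TAPEs the KCl F-test was passed and the vehicle F-test had an unadjusted p above 0.05, with the highest KCl mean in cortex for 52, in hippocampus for 23 and in striatum for 58. The interaction had an unadjusted p under 0.05 in 38 of these 133, and in 154 of all 1870 (8.24%), but an adjusted p under 0.05 in none of the 133 by limma's F-test. The 133 were chosen on the same libraries that enter the interaction, so a higher share among them is built into the choice. Over all tested TAPEs the interaction F-test called 1 TAPE (0.0535%), the interaction of cortex and striatum called 3 (0.16%) and that of hippocampus and striatum 1 (0.0535%). The interaction of cortex and hippocampus called 0 (0%), with 130 at an unadjusted p under 0.05 and 0 called by limma voom on recovered reads.

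The TAPE with the clearest change of regional order lay at chr4:77413446-77416130, 67.8 kb from Ezh2, the histone methyltransferase of the Polycomb repressive complex. It had 1.53, 1.79 and 1.88 CPKM in the cortex KCl libraries, 0.906, 0.532 and 0.707 in hippocampus and 0.331, 0.343 and 0.435 in striatum. The KCl order was therefore cortex, hippocampus, striatum, with no overlap between regions. At rest it had 0.332 ± 0.0359 CPKM in cortex, 0.145 ± 0.0231 in hippocampus and 0.423 ± 0.129 in striatum (n = 3, 3 and 4). Hippocampus minus striatum was 0.85 ± 0.19 in KCl (adjusted p = 0.0015) and -1.25 ± 0.24 in vehicle (adjusted p = 0.000233), an interaction of 2.10 ± 0.30 (adjusted p = 0.000201). The interaction of cortex and striatum was 2.37 ± 0.30 (adjusted p = 1.87e-05). The Ezh2 gene itself stood after KCl at 0.96 ± 0.57 in cortex, -1.42 ± 0.23 in hippocampus and 0.11 ± 0.33 in striatum, so the gene was lowest in hippocampus and the element in striatum.

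An element 23.6 kb from Gpr19, an orphan G protein-coupled receptor gene (chr4:168632041-168634201), was the 1 TAPE called in KCl, not called at an unadjusted p under 0.05 in vehicle and past an interaction contrast. It had 0.588, 0.498 and 0.697 CPKM in cortex KCl libraries, 0.219, 0.261 and 0.224 in hippocampus and 0.227, 0.239 and 0.204 in striatum. Cortex lay above the other 2 regions, which overlapped. In vehicle the means were 0.151 ± 0.0401, 0.229 ± 0.102 and 0.256 ± 0.0943 CPKM (F-test, limma unadjusted p = 0.165). The interaction of cortex and striatum was 1.80 ± 0.38 (adjusted p = 0.0341), but it did not pass without any 1 of the 6 cortex and striatum KCl libraries, cortex vehicle replicates 1 or 3, or striatum vehicle replicates 6 or 8 (adjusted p 0.0638 to 0.205), with a pseudocount of 0.01 (0.0782) or with no filter (0.341). The Gpr19 gene was also highest in cortex after KCl, at 1.56 ± 0.53 against 0.86 ± 0.31 in hippocampus and 0.38 ± 0.12 in striatum (exact permutation test, adjusted p = 0.0206), and its regional levels in vehicle were between -0.89 and -0.77.

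An element 286 kb from Dtna, which encodes the dystrophin-associated protein alpha-dystrobrevin (chr18:14755646-14759686), had 0.491, 0.429 and 0.398 CPKM in cortex after KCl. Hippocampus had 0.346, 0.240 and 0.276 and striatum 0.0841, 0.0776 and 0.0569, again without overlap. At rest hippocampus had the highest mean, at 0.239 ± 0.0263 CPKM against 0.136 ± 0.0472 in cortex and 0.10 ± 0.0196 in striatum. Cortex minus hippocampus did not pass in either state, at 0.54 ± 0.25 in KCl and -0.67 ± 0.29 in vehicle (limma adjusted p = 0.193 and 0.185). The interaction of cortex and hippocampus did not pass either (adjusted p = 0.355), so the change of leading region was not established. The interaction of cortex and striatum was 1.71 ± 0.35 (adjusted p = 0.0305), and it did not pass without any 1 cortex KCl library, striatum KCl replicates 5 or 7, cortex vehicle replicate 2 or striatum vehicle replicate 8 (adjusted p 0.0638 to 0.147), with a pseudocount of 0.01 (0.0522) or with no filter (0.341). The Dtna gene stood at 1.18 ± 0.19 in striatum, -0.66 ± 0.46 in hippocampus and -0.85 ± 0.10 in cortex after KCl (exact permutation test, adjusted p = 0.0539).

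**Figure D4:**
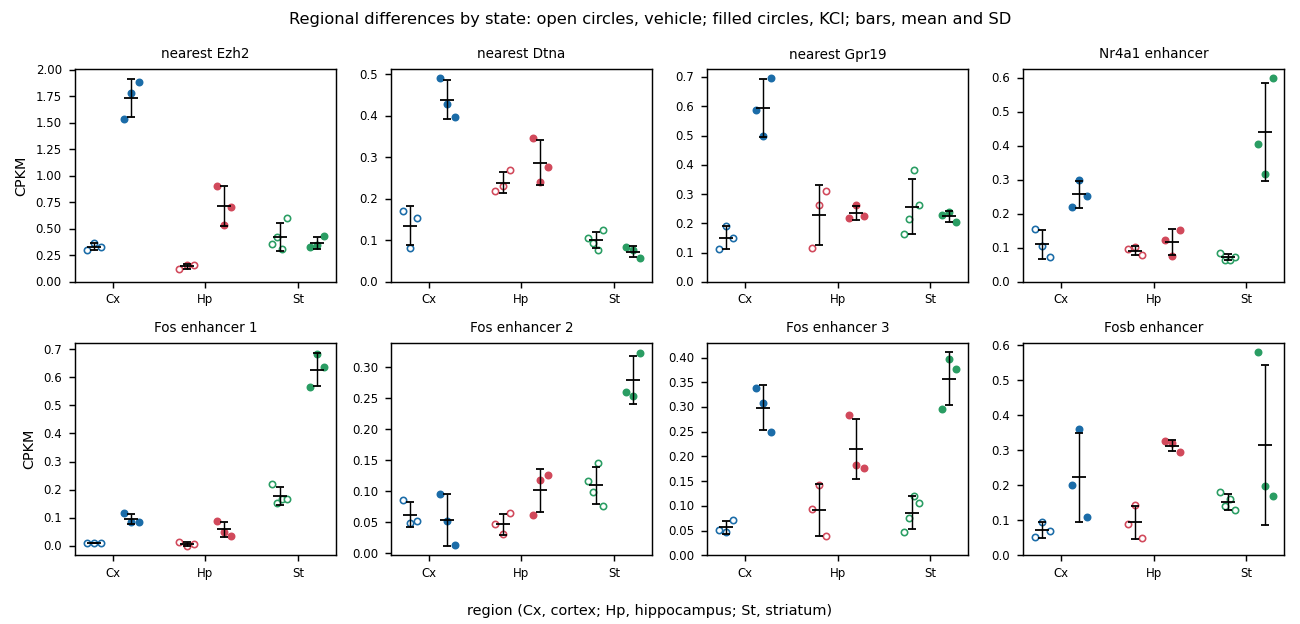
CPKM (y axes, linear) by region (x axis) of the 3 TAPEs past an interaction test (near Ezh2, Dtna and Gpr19) and of the 5 TAPEs that carry guides, with open points for vehicle libraries, filled points for KCl libraries and bars for mean and SD. Cortex KCl libraries near Gpr19 lie between 0.498 and 0.697 CPKM, above all other points of that panel, and striatum KCl libraries lie highest in the panels for Fos enhancers 1 and 2.

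The other 7 TAPEs with the lowest interaction p among the 133 lay near Nr4a1, Celf4, Ssu72, Wdr13, Wdr45, Gpalpp1 and Irs2, and none passed an adjusted interaction test. Their KCl F-tests had adjusted p from 0.000541 (Nr4a1) to 0.0315 (Wdr45). Hippocampus was low in 5 of them, by values that were not centred on the library median. The element near Irs2, an adaptor of the insulin receptor, had 0.0167 ± 0.0145 CPKM in hippocampus, 0.190 ± 0.144 in cortex and 0.120 ± 0.0787 in striatum. The element near Celf4, an RNA-binding protein of neurons, had 0.0216 ± 0.0216, 0.128 ± 0.0495 and 0.108 ± 0.0270 CPKM in the same order. Those near Wdr13 and Wdr45, on chromosome X, had 0.0571 ± 0.0149 and 0.0104 ± 0.00901 CPKM in hippocampus.

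Striatum was low in the other 2. The element near Ssu72, which encodes an RNA polymerase II phosphatase, had 0.126 ± 0.0171 CPKM in striatum, 0.25 ± 0.0282 in cortex and 0.291 ± 0.0565 in hippocampus. The element near Gpalpp1 had 0.0405 ± 0.0102 CPKM in striatum, 0.187 ± 0.0222 in cortex and 0.170 ± 0.0761 in hippocampus, whereas its 3 vehicle means lay between 0.169 and 0.192. The F-test call near Celf4 was lost without hippocampus KCl replicate 3 (adjusted p = 0.0613) and that near Ssu72 without striatum KCl replicate 7 (adjusted p = 0.0544). The call near Wdr45 was lost without any 1 hippocampus KCl library or striatum KCl replicate 1 (adjusted p 0.0623 to 0.127) and after centring. With no filter, the calls near Nr4a1, Celf4, Wdr13, Wdr45 and Irs2 were lost, and limma voom lost that near Wdr13.

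Activity-regulated genes were covered by 18 tested TAPEs, of which 7 passed the KCl F-test (38.9%, against 32% of all tested TAPEs) and 2 the vehicle F-test, against 36.1% of all tested TAPEs there. Elements flanking Fos, which encodes a subunit of the AP-1 transcription factor, differed among themselves. Fos enhancer 2 (chr6:109280836-109283088, 18.5 kb from the start) had 0.260, 0.254 and 0.323 CPKM in striatum, 0.0956, 0.0523 and 0.0130 in cortex and 0.0621, 0.117 and 0.126 in hippocampus. Striatum was above the other regions without overlap (cortex minus striatum -1.74 ± 0.33, adjusted p = 0.000556), and the vehicle F-test had an unadjusted p of 0.0615. The interaction had an adjusted p of 0.521, and the F-test call was lost with no filter. This element, and the Fosb element, were named because guides lie in them, after their values had been seen.

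Fos enhancer 3 (chr6:109311940-109315695, 13.4 kb from the start) had 0.338, 0.309 and 0.249 CPKM in cortex, 0.284, 0.183 and 0.177 in hippocampus and 0.297, 0.398 and 0.378 in striatum. Cortex overlapped both other regions, whereas hippocampus lay under striatum without overlap. The F-test was not passed (adjusted p = 0.114), and hippocampus minus striatum was -0.63 ± 0.25 (limma adjusted p = 0.0552). KCl means were 0.299, 0.215 and 0.357 CPKM against 0.0567, 0.0916 and 0.0868 in vehicle. The Fosb element (chr1:80230915-80233062) had 0.223 ± 0.127, 0.314 ± 0.0166 and 0.316 ± 0.229 CPKM in cortex, hippocampus and striatum, and its F-test was not passed either (adjusted p = 0.460). For this element 1 striatum library, replicate 1, held 0.580 CPKM, and the others held 0.197 and 0.170.

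The element 14.8 kb from Nr4a1, an early nuclear receptor gene, carries both Nr4a1 guides (chr7:142890056-142891915). It had 0.406, 0.317 and 0.598 CPKM in striatum, 0.220, 0.298 and 0.252 in cortex and 0.122, 0.0758 and 0.152 in hippocampus. The 3 regions did not overlap (F-test, limma adjusted p = 0.000541), although cortex minus striatum did not pass on its own (adjusted p = 0.0980). In vehicle the means were 0.0723 ± 0.00961, 0.110 ± 0.0420 and 0.0916 ± 0.0123 CPKM in striatum, cortex and hippocampus, with an unadjusted p of 0.457. The interaction of hippocampus and striatum was -1.75 ± 0.38 and did not pass (adjusted p = 0.0726).

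The Nr4a1 promoter is shown because the gene and its element were both highest in striatum and lowest in hippocampus after KCl. It covers 250 bases before to 50 after the gene start in RefSeq on the GRCr8 assembly (chr7:134259888-134260187, plus strand), a different build from that of the TAPE coordinates. Capitals mark CGTCA, the core of the cyclic AMP response element that CREB binds, searched on both strands as CGTCA or TGACG.
Nr4a1 promoter: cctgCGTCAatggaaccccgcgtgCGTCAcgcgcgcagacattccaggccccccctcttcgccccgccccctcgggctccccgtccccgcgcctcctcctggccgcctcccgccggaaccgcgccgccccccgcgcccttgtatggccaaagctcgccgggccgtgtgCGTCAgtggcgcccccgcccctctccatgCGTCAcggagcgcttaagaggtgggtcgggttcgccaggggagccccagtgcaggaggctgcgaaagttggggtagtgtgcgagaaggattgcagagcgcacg
The window holds 4 matches. Of 33469 promoters of this length, 21.2% hold at least 1 match and 79 (0.236%) hold 4 or more. A match is a run of letters and was not tested as a binding site.

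The remaining called elements of activity-regulated genes went several ways. The element 64.0 kb from Nr4a2 was high in hippocampus, at 0.113 ± 0.0493 CPKM against 0.0477 ± 0.0373 in cortex and 0.00503 ± 0.00871 in striatum. The Btg2 element was high in striatum at 0.171 ± 0.0676 CPKM, with 0.0516 ± 0.0565 in cortex and 0.0265 ± 0.0200 in hippocampus. The Dusp4 element, 2.45 kb from the gene of this MAP kinase phosphatase, was low in striatum at 0.222 ± 0.0947 CPKM, and an element near Nr4a3 was low in cortex at 0.0506 ± 0.0481. With no filter the calls near Nr4a2, Nr4a3, Btg2 and Dusp4 were lost, and with a pseudocount of 0.01 that near Nr4a3. The Btg2 and Dusp4 calls were also lost without striatum KCl replicate 7 (adjusted p = 0.0686 and 0.0708). That of Nr4a3 was lost without cortex KCl replicates 2 or 3, hippocampus KCl replicate 3, or striatum KCl replicates 1 or 5 (adjusted p 0.0530 to 0.225).

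Gene levels were read as standardised profiles, in SD of the gene over the 19 libraries, solved from the deposited correlations of genes with TAPEs. Such a profile gives order and direction within a gene and no fold. Of 16733 genes solved, 8476 (50.7%) differed between regions in KCl cultures by an exact permutation test with Benjamini-Hochberg adjustment, and 10053 (60.1%) did in vehicle. Of the KCl-called genes, 2226 were led by cortex, 2909 by hippocampus and 3341 by striatum. The highest region was the same in vehicle for 90.7% of them, against 74.7% of all genes, and 7553 (89.1%) were also called in vehicle.

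Activity-regulated genes differed between regions after KCl in 26 of 29 cases (89.7%, against 50.7% of all genes), and the leading region was split. At rest 28 of the 29 differed as well, against 60.1% of all genes, and 25 were called in both states. Of the 26, 11 were highest in striatum, 11 in cortex and 4 in hippocampus, while 16 were lowest in hippocampus. The mean level over the 29 genes was 1.06 to 1.22 in the cortex KCl libraries, 0.37 to 0.51 in hippocampus and 0.78 to 0.80 in striatum, and between -0.84 and -0.57 in all vehicle libraries. The leading region was the same in vehicle for 17 of the 26.

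Fos, Nr4a1, Npas4, Arc, Fosb and Fosl2 were among the 11 genes led by striatum. Fos stood at 1.58 ± 0.03 in striatum, 0.93 ± 0.06 in cortex and 0.35 ± 0.04 in hippocampus after KCl, and between -0.96 and -0.71 in every vehicle group (SD, n = 3; exact permutation test, adjusted p = 0.0127). Nr4a1 had 1.75 ± 0.05, 0.87 ± 0.05 and -0.00 ± 0.05 in the same order. The neuron-specific factor Npas4 (1.74 ± 0.09 in striatum), the synaptic regulator Arc, Fosb (1.71 ± 0.15) and Fosl2 (1.97 ± 0.15) followed the same order. In each of these the 3 KCl libraries of striatum were the highest of all 19.

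Among the 11 genes led by cortex were Ier2, the MAP kinase phosphatase gene Dusp1 and the stress gene Gadd45b, which had 2.0 ± 0.06, 1.98 ± 0.10 and 1.96 ± 0.26 in cortex. Their hippocampus and striatum levels lay between 0.10 and 0.44. The scaffold gene Homer1 was at 1.86 ± 0.15 in cortex, 0.71 ± 0.09 in striatum and -0.01 ± 0.15 in hippocampus. The neurotrophin gene Bdnf was high in cortex (1.52 ± 0.14) and hippocampus (1.15 ± 0.19), and its striatum level after KCl (-0.97 ± 0.00) was close to that in vehicle (-0.99 ± 0.00).

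In hippocampus, Atf3, a stress-responsive factor, stood at 1.53 ± 0.01, with 1.06 ± 0.17 in striatum and 0.24 ± 0.10 in cortex. Dusp4 stood at 1.52 ± 0.07 and the synaptic pentraxin gene Nptx2 at 1.41 ± 0.26, and Klf10 was the fourth. Dusp6, Egr3 and Nr4a3 did not pass the test (adjusted p 0.0613, 0.0539 and 0.0975). For 2 called genes a called element led in another region than the gene after KCl. Nr4a2 and Btg2 were highest in cortex (1.72 ± 0.20 and 1.71 ± 0.08), while their elements were highest in hippocampus and striatum.

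**Figure D5:**
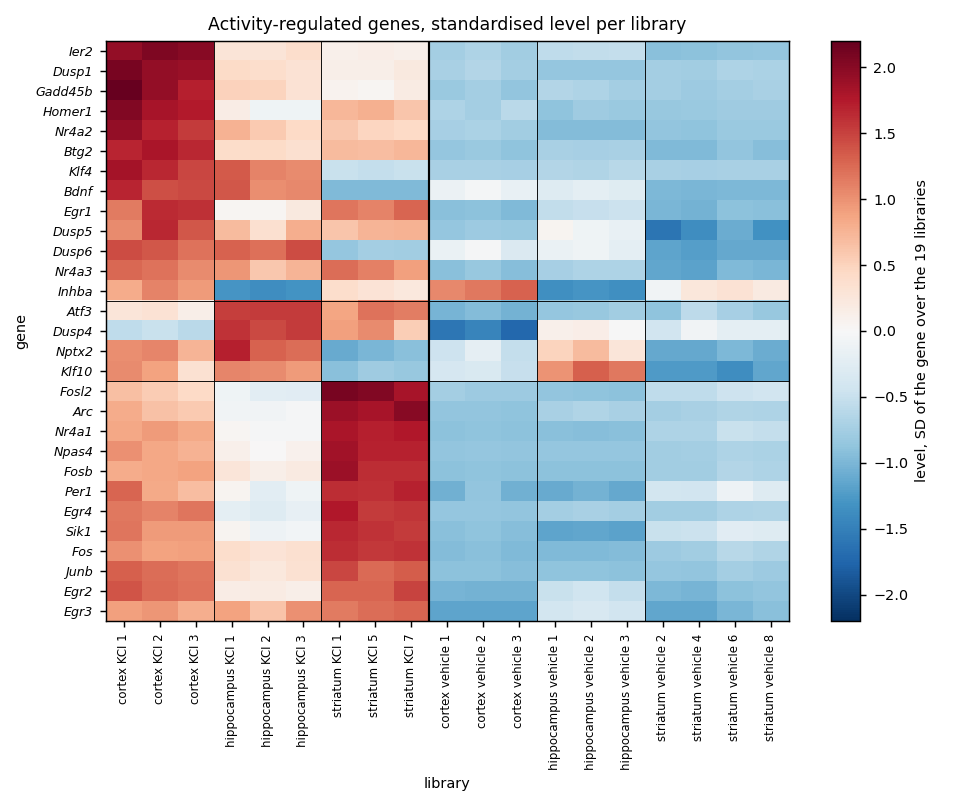
Standardised level (colour, SD of each gene over the 19 libraries) of 29 activity-regulated genes (rows) in each library (columns, KCl left and vehicle right), grouped by the region with the highest KCl mean. Rows led by cortex, hippocampus and striatum number 13, 4 and 12, and striatum KCl columns are darkest for Fosl2, Arc, Nr4a1 and Npas4.

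Cell type genes were mostly highest in the region they mark. Kcnf1, Prox1 and Mn1 are in these lists and were the study's own examples from these cultures, so they are no independent check. The lists as a whole were chosen with earlier results of these data known. All 10 pallial excitatory genes differed between regions after KCl and were lowest in striatum, where the transcription factor genes Neurod2 and Neurod6 stood at -1.24 and -1.26. Of 11 cortical layer genes 10 passed, 9 of them highest in cortex, with Kcnf1, a modulatory potassium channel subunit, at 2.06 ± 0.29 in cortex and Cux1 highest in striatum instead. The 9 hippocampal genes all passed and 8 were highest in hippocampus, and Man1a1 was highest in striatum. Of 22 striatal projection neuron genes 21 passed and 20 were highest in striatum, among them the dopamine receptor gene Drd1 (1.62 ± 0.05) and the enkephalin gene Penk (1.85 ± 0.22). Rxrg was highest in hippocampus and Ikzf1 was not called. Of 13 GABAergic genes 10 passed, 9 of them highest in striatum, including Gad1 (1.48 ± 0.06), which makes GABA.

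Tac1, the substance P precursor gene, was the 1 called striatal gene whose leading region differed between states. It stood at 1.55 ± 0.39 in striatum, 1.04 ± 0.33 in cortex and -0.29 ± 0.27 in hippocampus after KCl, and at -0.99 ± 0.21, -0.11 ± 0.15 and -0.88 ± 0.23 in vehicle. For the other lists the leading region of the called genes was the same in vehicle for 9 of 10 pallial, 10 of 10 cortical, 9 of 9 hippocampal and 10 of 10 GABAergic genes.

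Astrocyte genes differed between regions as well. All 8 passed, against 50.7% of all genes, and 7 were lowest in striatum, with a mean over the list of 0.63 to 0.80 in cortex KCl libraries, 0.52 to 0.78 in hippocampus and -1.14 to -1.03 in striatum. Gfap, the astrocyte filament gene, stood at 1.44 ± 0.03 in hippocampus and -0.61 ± 0.03 in cortex. Of 8 oligodendrocyte lineage genes 5 passed (62.5%), all lowest in striatum. For microglia 1 of 5 genes passed (20%), for vascular cells 2 of 4 (50%) and for dividing progenitors 5 of 7 (71.4%), and the first 2 of these shares lie at or under that of all genes. The part of these cell types in the TAPE differences was not tested, and whether an unscaled level was 0 cannot be read from a standardised profile.

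TAPEs nearest to these genes were few among those tested, and their counts are to be read against 32% of all tested TAPEs past the KCl F-test and 4.81%, 4.6% and 9.73% high in cortex, hippocampus and striatum. All 7 next to cortical layer genes passed the KCl F-test, 4 of them high in cortex, and 3 of 5 next to hippocampal genes passed, all high in hippocampus. Of 10 next to striatal genes 9 passed and 8 were high in striatum, 4 of these near Mn1 and the others near Sp9, Meis2, Rpp25 and Ppp1r1b. The elements near Mn1 share a locus. The Rpp25 element is also among the leading striatal elements after KCl given above. Gene lists were chosen with earlier results of these data known, so its call is no independent check. Mn1 and Prox1 are also the study's own examples of region-selective pairs in these cultures, so their elements are no independent check of the lists. The Ppp1r1b element, 3.08 kb from the gene of a dopamine-regulated phosphatase inhibitor, had 0.229, 0.223 and 0.284 CPKM in striatum. Its 6 cortex and hippocampus values lay between 0.0224 and 0.0712. The Pou3f2 element, near a factor of upper cortical layers, had 0.335 ± 0.0169 CPKM in cortex, 0.193 ± 0.0138 in striatum and 0.0465 ± 0.0277 in hippocampus. Near Fezf2, a factor of deep cortical layers, the element was high in hippocampus (0.126 ± 0.0620 CPKM, with 0.0124 ± 0.0108 in cortex), although the gene was highest in cortex. No TAPE next to Kcnf1 was tested, of 10 in the table.

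Of the other marker lists, 1 of 4 TAPEs next to pallial genes passed (25%), near Eomes and low in striatum, a share near the 32% of all tested TAPEs. The 1 element next to an astrocyte gene, near Sox9, was high in striatum at 0.149 ± 0.0857 CPKM, although the Sox9 gene was lowest there (-1.12 ± 0.04). Next to oligodendrocyte genes 2 of 4 passed (50%), near Olig2 (low in striatum) and Pdgfra (low in cortex). No element next to microglial, vascular or dividing cell genes was tested.

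Some of these calls rested on single libraries, and with no filter those near Eomes, Sox5, Pou3f1, Fezf2, Grik4, Nr3c2, Meis2, Sox9, Olig2, Pdgfra and 2 of those near Mn1 were lost. That near Sox9 was lost without hippocampus KCl replicates 1 or 3 or striatum KCl replicate 1 (adjusted p 0.0624 to 0.108). The 3 called elements near Sox5 were lost without hippocampus KCl replicate 3, without cortex KCl replicates 1 or 2, and without hippocampus KCl replicate 2 or striatum KCl replicate 1 (adjusted p 0.0598 to 0.102), and that near Pou3f1 without cortex KCl replicates 1 or 3 or hippocampus KCl replicates 2 or 3 (0.0547 to 0.0891). The Meis2 call was lost without cortex KCl replicate 3, hippocampus KCl replicates 1 or 2 or any 1 striatum KCl library (0.0513 to 0.0882), and also after centring and with a pseudocount of 0.01. Limma voom lost 2 of the Sox5 calls and that near Pou3f1, a pseudocount of 0.01 lost 1 Sox5 call and that near Pou3f1, and a pseudocount of 0.2 lost that near Pdgfra. The Mn1 call 248 kb from the gene was lost without striatum KCl replicate 7 (0.0820), and that near Pdgfra without any 1 of 7 KCl libraries, all but cortex replicate 3 and striatum replicate 1 (0.0603 to 0.187).

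The gene nearest to a region-selective TAPE was often led by the same region. For 56 of 89 TAPEs high in cortex with a solved nearest gene (62.9%), that gene was highest in cortex after KCl, against 31.2% of all 1841 tested TAPEs with one. The shares were 56.6% against 31.3% in hippocampus and 60% against 37.5% in striatum. For TAPEs low in a region, the nearest gene was lowest in that region for 40% (22.6% of all) in cortex, 54.3% (38.8%) in hippocampus and 54% (38.6%) in striatum. TAPEs that share a nearest gene are not independent, so these shares carry no test.

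The classes of neighbouring TAPEs were also compared, over pairs of a TAPE in a class and a tested TAPE within 100 kb. A TAPE enters with each of its pairs, so clustered TAPEs count repeatedly, and these shares carry no test. For TAPEs high in cortex, the neighbour was high in cortex too in 45.8% of 166 pairs, against 4.81% of all tested TAPEs. For TAPEs high in hippocampus the share was 13.7% of 73, against 4.6%, and for those high in striatum 40.6% of 192, against 9.73%. For TAPEs low in cortex it was 7.41% of 27, against 1.39%, for those low in hippocampus 29.1% of 172, against 5.78%, and for those low in striatum 44.7% of 403, against 8.02%. The last 403 pairs came from 86 TAPEs low in striatum. The median length was 2128, 1974 and 2078 bp for TAPEs high in cortex, hippocampus and striatum, against 2006 bp for all tested TAPEs. The median distance to the nearest gene start was 72.9, 42.0 and 47.9 kb, against 40.6 kb, and the median number of genes within 1 Mb was 9.5, 13 and 14.5, against 14.

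At the edge of the KCl F-test, elements near Nsg2 and Usp29 lay just inside the threshold (adjusted p = 0.0496 and 0.04997) and elements near LOC300308 and Hemk1 just outside (0.05003 for both).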

How the data were processed

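Total RNA-seq of 19 rat neuron cultures was used, with groups taken from sample titles. Per the labels and the study's methods, the authors trimmed reads with Trim Galore 0.4.5, aligned them with STAR to Rn6 with Ensembl annotation, handled alignments with SAMtools 1.9, and counted reads per TAPE in SeqMonk without regard to strand, duplicates included. The authors deposited TAPE values as RPKM on a linear scale, under the name CPKM. The authors also deposited a correlation score for pairs of a TAPE and a gene (Pearson r). Whole reads were recovered from 100% of the CPKM values through TAPE lengths and 1 factor per library, which gave the depth. Duplicates were not removed, so reads are not independent molecules. The authors compared TAPE counts between regions with DESeq2. Here the main test used the normalized values, and recovered reads entered limma voom as an alternative and a chi-square comparison of libraries.

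TAPEs with a mean of at least 0.05 CPKM were tested on log2(CPKM + 0.05) with limma 3.58.1 in R 4.3.3 (lmFit, eBayes with trend, two-sided, Benjamini-Hochberg over 1870 TAPEs): regions in the 9 KCl libraries, regions in the 10 vehicle libraries, and their interaction in all 19. Gene profiles were solved from the deposited correlations for 16733 of 17715 symbols (Python 3.11.15, numpy 2.4.6, pandas 2.3.3, scipy 1.17.1) and tested by exact permutation over 1680 (KCl) and 4200 (vehicle) arrangements. They replace gene values per library. Scripts were tested on simulated data.

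TAPEs were named by rule: per region the 5 high (at least 0.1 CPKM there) and 3 low with the lowest F-test p and no overlap of that region's libraries with the others; those past an interaction test; the 8 with the lowest interaction p among TAPEs called in KCl with vehicle p above 0.05; the up to 2 of highest mean CPKM nearest to Kcnf1, Prox1, Mn1, Fos and Nr4a1; and, beyond the rule, TAPEs with guides. Members, gene lists and tests were chosen with earlier results of these data known. Alternatives were pseudocounts 0.01 and 0.2, no filter and a filter at 0.1 CPKM, median-centred libraries, limma voom with TMM factors on recovered reads, 1 fit of all 19 libraries, a replicate block, an adjusted p of 0.01 for persistence, and leaving out each library. TAPE sequences were not used here, as no Rn6 genome was at hand. Results for some genes are not reported here.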

Additional observations from a re-analysis of the deposited data

Results flagged for a closer look

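The TAPE near Ezh2 (chr4:77413446-77416130) differed between regions differently in KCl and in vehicle cultures, by limma's test of the interaction. The difference of cortex minus striatum changed by 2.37 (log2, KCl minus vehicle) and that of hippocampus minus striatum by 2.10. For the TAPE near Gpr19 the difference of cortex minus striatum changed by 1.80, and for the TAPE near Dtna by 1.71. The Gpr19 and Dtna calls were lost without some single libraries, as given above. In 1 group of 4 libraries, striatum vehicle, the TAPE near Prox1 had 0.0235 CPKM in replicate 8 and 0 in the other 3, and was picked up as far from the others of its group. With 3 values at 0, any level above 0 in the remaining library would be, so this says nothing more of the library.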

How the results depend on the processing

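With a filter at 0.1 CPKM fewer TAPEs were tested, and 349 passed the KCl F-test, 231 and 309 differed for cortex against striatum and hippocampus against striatum, 47, 49 and 96 were high in cortex, hippocampus and striatum, 189 were low in a region and 405 passed the vehicle F-test. The interaction then called 3 TAPEs by the F-test and 2 for hippocampus against striatum. With no filter, 47 TAPEs differed between cortex and hippocampus, 136 were high in hippocampus, 176 were low in a region, the interaction called 2 by the F-test and 2 for hippocampus against striatum, and 92.7% of the hippocampus against striatum calls kept their sign in vehicle. TAPEs high in hippocampus numbered 131 after median-centring and 144 with limma voom, which also called 4 TAPEs in the interaction F-test and gave 97.8% of kept signs for cortex against striatum. A pseudocount of 0.2 gave 7, 6 and 1 interaction calls (F-test, hippocampus against striatum, cortex against hippocampus), and 0.01 gave 1 for cortex against striatum. At an adjusted p of 0.01, 95.2% (cortex against hippocampus) and 99.1% (cortex against striatum) kept their sign. At the smallest possible p there were 4692 genes. The causes of these shifts were not tested.

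Replicate numbers did not pair libraries of cortex and hippocampus (same-number correlation of deviations -0.00976 to 0.0154 in KCl), and with the number as a block 100 TAPEs differed between them, against 166 in the same 6 libraries without the block. The interaction called 0 TAPEs with the block and 0 without.

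Leaving out each library in turn gave 514 to 598 TAPEs in the KCl F-test, 109 to 175, 299 to 383 and 408 to 560 for cortex against hippocampus, cortex against striatum and hippocampus against striatum, 69 to 86, 68 to 88 and 151 to 176 high in cortex, hippocampus and striatum, and 229 to 281 low in a region (284 with all). The vehicle F-test called 606 to 644, and the interaction 1 to 2 by F-test, 0 to 1, 1 to 3 and 1 to 2 in the 3 contrasts. Kept signs ranged over 87.5 to 94.3%, 95.1 to 97.3% and 95.01 to 97.7%, in the same order, and the first was lowest without cortex vehicle replicate 3. The smallest margin between a KCl library's own and next region was 0.222 in correlation (0.204 to 0.236). The largest over the smallest regional TAPE read share was 1.06 (1.04 to 1.09). Of 520 values of the 31 named TAPEs under alternatives, 482 kept direction and side of the threshold, 36 lost and 2 gained it, and 0 reversed.

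With 3 libraries a region and a median standard error of 0.34, small differences were not detectable, and interactions carry a larger error than differences within a state. Most TAPEs were too shallow to test. Of 52 named or listed calls of the KCl F-test, 14 were lost without some 1 library and 25 with no filter.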
